A study of Mus musculus with 39 samples.

Results

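The homeostatic surface and secreted markers of microglia were followed as 9 listed genes: the receptors Cx3cr1, P2ry12, P2ry13, P2ry6 and Gpr34, the membrane proteins Tmem119, Selplg and Siglech, and the secreted protein Olfml3. They were found by their symbols among 16144 genes with raw read counts. Of the 9, 8 had a row and all 8 passed the low-count filter, and Siglech was not analysed here. Gpr34 passed it through the acceptors and the control, since 11 of 18 donor libraries held no read of it.

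Primary microglia were prepared from neonatal C57BL/6 mice, with cells of a pair of brains pooled per flask, and shaken off the astrocyte layer on which they had grown in medium with L929 cell supernatant. Donors, typically 250000 cells per well, received 1 µM alpha-synuclein labelled with the dye Atto-488 for 14 h, and acceptors, typically 6000000 cells per flask, received the dye CellTracer Violet for 15 min. Each population (groups Donors_TW and Acceptors_TW) was sampled at 0, 15, 30, 60, 150 and 300 min of a shared culture in which the cells did not touch, beside a control at 0 min (Ctrl_0min), with 3 libraries in each of 13 groups. The labels do not say what TW stands for, how the control was plated, or whether a group's 3 libraries are separate cultures, so p-values here cover only the spread between libraries, which may be technical. Donors differ from acceptors in alpha-synuclein, in dye and in plating density at once, and these cannot be told apart. Whether donors and the control also differ in plating is not given.

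Microglia are the resident macrophages of the brain, and in the undisturbed brain they carry a set of receptors that read signals from neighbouring cells. Cx3cr1 binds fractalkine, a chemokine that neurons display; P2ry12, P2ry13 and P2ry6 bind extracellular nucleotides that leak from injured cells; and Gpr34 binds lysophosphatidylserine. Tmem119 is a membrane protein used to tell microglia from other macrophages, Olfml3 is a secreted olfactomedin-like protein, and Selplg, also called PSGL-1, is a ligand of selectins. Several of these genes are known to be turned down when microglia are activated or taken into culture.

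Levels are in CPM, counts divided by library totals that TMM factors had adjusted. The libraries count 3′ tags, so levels of different genes are not set against each other. Donor libraries held 8753743 to 15910662 reads, acceptor libraries 8649169 to 14743934 and control libraries 10249066 to 11587525, and 3 counts correspond to 0.181 to 0.414 CPM, a limit that covers counting error only. Macrophage markers were abundant throughout: the 16 genes of the identity list (Aif1, Itgam, Cd68, Csf1r and others) together reached 13188 to 18661 CPM in donor, 20364 to 52618 in acceptor and 24152 to 26896 in control libraries. The library numbers in the titles form 3 consecutive runs, each holding every group once, and samples of one run are described as such. The library Acceptors_TW_300min replicate 2, in run 1, stood apart from its group: it was the shallowest of all, it held the highest acceptor value of P2ry13 (41.8 CPM), P2ry6 (214 CPM) and Tmem119 (18.6 CPM), and it held the lowest of P2ry12 (0.655 CPM) and Olfml3 (18.2 CPM). Results that rest on it are given with and without it, except the correlations over group means.

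Donors at 0 min held less Cx3cr1, P2ry13, Olfml3 and Tmem119 than the control and more Selplg, while no marker was called between acceptors at 0 min and the control. A gene is called, or said to be higher or lower, where the edgeR quasi-likelihood test over all genes gave a Benjamini-Hochberg adjusted p under 0.05. By that rule 5 of the 8 measured markers were called in donors against control at 0 min, 4 lower and 1 higher, where 19.7% of all 13034 genes tested were called, 9.34% lower and 10.3% higher. The median log2 difference was -1.74 over the 8 markers and -0.03 over all genes. In bulk RNA, fewer cells carrying a marker and less of its RNA per cell cannot be told apart. With only the libraries of these groups in the fit, 3 of the 8 were called (Cx3cr1, P2ry13 and Olfml3), and the count was 3 or 4 whichever of the 6 libraries was left out. It was 3 without control replicate 1, control replicate 2, donor replicate 1 or donor replicate 2.

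**Figure D1:**
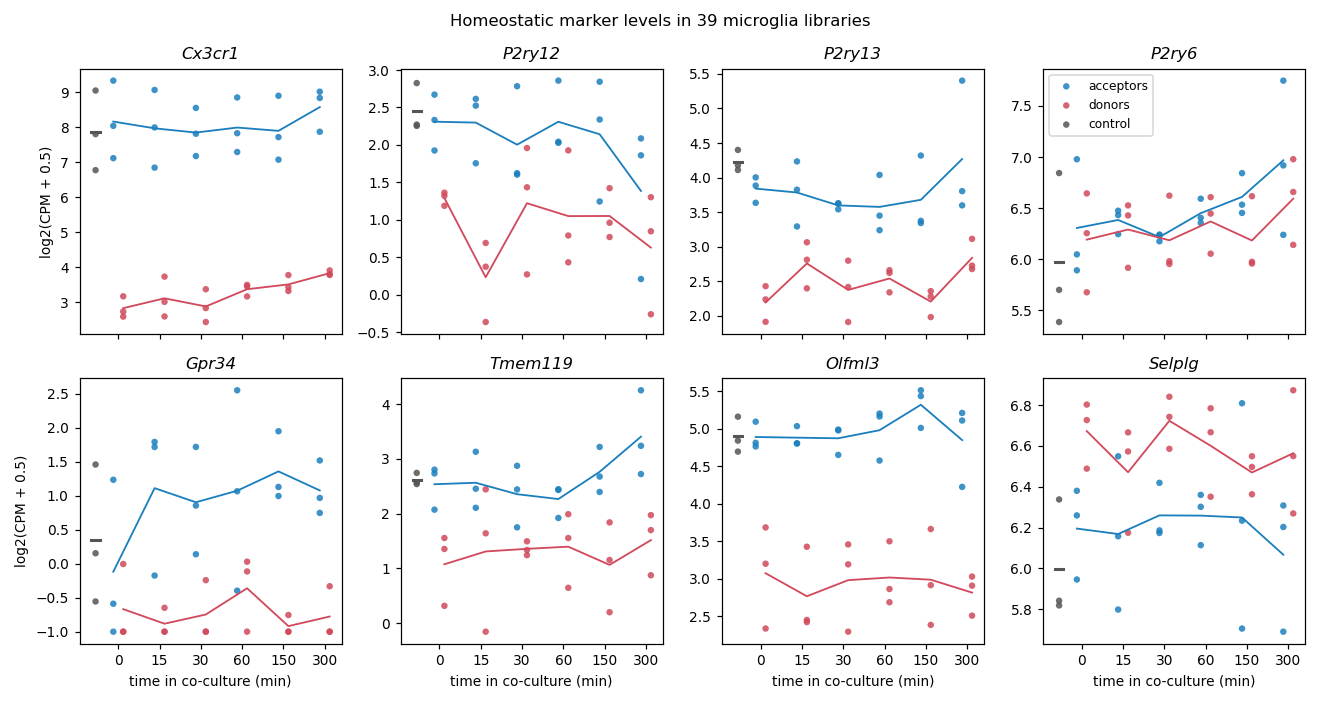
Level of each marker in all 39 libraries, as log2(CPM + 0.5), against time in co-culture in min at equal steps; points are libraries, lines join the means of 3 donor (red) or acceptor (blue) libraries, and grey points with a bar are the control libraries and their mean. All 18 donor points of Cx3cr1, P2ry13 and Olfml3 lie below all 18 acceptor points, and P2ry6 mixes between populations. The donor line of Selplg lies above the acceptor line, while their points overlap.

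Cx3cr1, the fractalkine receptor, had the fitted difference farthest from 0 among the 8 in this comparison. Its level was 109, 222 and 527 CPM in the 3 control libraries and 6.18, 5.55 and 8.53 CPM in the donors at 0 min, so that the groups did not overlap, as was so, with donors the lower, for 17.7% of all genes. The fitted log2 difference was -5.40 (SE 0.65, edgeR adjusted p = 2.05e-07), a 42.2-fold lower level. Over all times donors ranged from 4.93 to 14.6 CPM with a median of 9.71, and acceptors from 114 to 640 CPM with a median of 243. Every donor library was thus below every acceptor library. Reads of Cx3cr1 were still found in every donor library, 50 to 146 in each.

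Of the nucleotide receptors, P2ry13 was called between donors and control at 0 min, and P2ry12 and P2ry6 were not. P2ry13, an ADP receptor that signals through Gi proteins, was at 20.6, 17.6 and 16.8 CPM in the control and at 3.27, 4.22 and 4.89 CPM in the donors at 0 min. The ranges did not overlap, and the log2 difference was -2.15 (SE 0.38, edgeR adjusted p = 7.74e-05). Across all times P2ry13 spanned 3.26 to 8.15 CPM in donors with a median of 4.86, and 8.95 to 41.8 CPM in acceptors with a median of 11.9.

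P2ry12, the ADP receptor that guides microglial processes towards injured cells, was scarce in these cultures. It was at 6.59, 4.33 and 4.27 CPM in the control and at 1.78, 2.0 and 2.07 CPM in the donors at 0 min. The ranges did not overlap, but the log2 difference of -1.38 (SE 0.63) was not called (edgeR adjusted p = 0.123). It was called with library totals in place of TMM factors (-1.74, edgeR adjusted p = 0.0458). Donor libraries held 2 to 49 reads of it.

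P2ry6, the UDP receptor known for triggering phagocytosis, was at 51.5, 41.3 and 114 CPM in the control and at 50.6, 75.9 and 99.5 CPM in the donors at 0 min. These ranges overlapped, with a log2 difference of 0.13 (SE 0.34, edgeR adjusted p = 0.840). Gpr34, the lysophosphatidylserine receptor, was at 0.613, 0.180 and 2.25 CPM in the control, and 2 of 3 donor libraries at 0 min held no read of it while the third was at 0.497 CPM. The log2 difference was -2.52 with an SE of 1.49, not called (edgeR adjusted p = 0.247), at 2 to 29 reads in a control library.

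Tmem119 was at 5.44, 5.32 and 6.21 CPM in the control and at 2.06, 2.44 and 0.745 CPM in the donors at 0 min. Without overlap between the groups, it was lower in donors by a log2 difference of -1.70 (SE 0.60, edgeR adjusted p = 0.0426). Its call was lost when any 1 of the 6 libraries was left out, with edgeR adjusted p between 0.0511 and 0.176, and with the low-count filter off (0.0508). Olfml3 was at 28.2, 25.4 and 35.3 CPM in the control and at 12.4, 4.55 and 8.69 CPM in the donors at 0 min. It was lower in all 3 donor libraries, with a log2 difference of -1.78 (SE 0.36, edgeR adjusted p = 0.000401).

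Selplg was the one marker called higher, at 80.4, 55.9 and 56.8 CPM in the control and 111, 89.3 and 105 CPM in the donors at 0 min. The log2 difference was 0.66 (SE 0.23, edgeR adjusted p = 0.0374). With library totals in place of TMM factors it was 0.30 (edgeR adjusted p = 0.357), and it was not called without replicate 1 or 2 of the control or of the donors (0.0874 to 0.151). Library totals moved the median log2 difference of all genes from -0.03 to -0.39 in this comparison and the calls from 1217 lower of 2565 to 2623 lower of 3362, so the position of Selplg above the control holds relative to the TMM-scaled transcriptome.

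**Figure D2:**
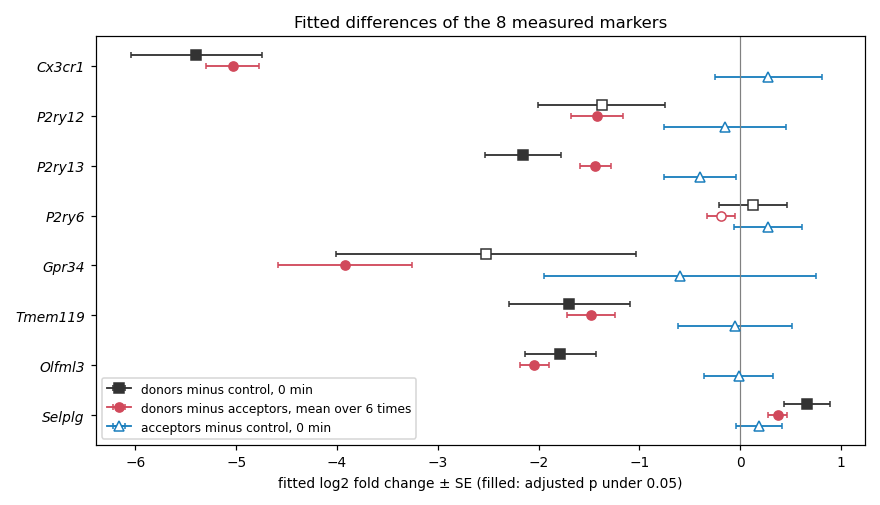
Fitted log2 fold change of each of the 8 markers with its SE (bars) in 3 comparisons: donors minus control at 0 min (dark squares), donors minus acceptors as the mean over 6 times (red circles) and acceptors minus control at 0 min (blue triangles); filled symbols have an adjusted p under 0.05. Cx3cr1 lies near -5 in both donor comparisons, and every acceptor symbol is open and near 0.

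P2ry12 and P2ry13 are neighbours. In GENCODE M21 on GRCm38, P2ry12 spans chr3:59216272-59262871 and P2ry13 chr3:59207892-59210882, both on the minus strand, and Olfml3 lies on the same chromosome and strand at chr3:103722222-103738001. The 250 bases upstream of their RefSeq starts (GRCm38.p6, minus strand, printed 5′ to 3′) are shown because these 3 genes share a chromosome and were lower in donors over the 6 times, as described further on. They lie at chr3:59262986-59263235 for P2ry12, chr3:59210883-59211132 for P2ry13 and chr3:103738002-103738251 for Olfml3. Capitals mark matches to motifs of factors known in microglia, searched on both strands.
P2ry12: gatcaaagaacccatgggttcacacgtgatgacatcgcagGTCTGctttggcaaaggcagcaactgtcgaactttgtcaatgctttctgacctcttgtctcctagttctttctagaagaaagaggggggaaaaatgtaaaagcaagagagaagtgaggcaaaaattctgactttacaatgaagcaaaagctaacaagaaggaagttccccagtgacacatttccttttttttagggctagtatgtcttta
P2ry13: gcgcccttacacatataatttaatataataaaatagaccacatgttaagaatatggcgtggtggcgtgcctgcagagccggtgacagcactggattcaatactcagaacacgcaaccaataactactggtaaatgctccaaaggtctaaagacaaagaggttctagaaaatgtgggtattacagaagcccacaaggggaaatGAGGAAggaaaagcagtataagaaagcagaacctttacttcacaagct
Olfml3: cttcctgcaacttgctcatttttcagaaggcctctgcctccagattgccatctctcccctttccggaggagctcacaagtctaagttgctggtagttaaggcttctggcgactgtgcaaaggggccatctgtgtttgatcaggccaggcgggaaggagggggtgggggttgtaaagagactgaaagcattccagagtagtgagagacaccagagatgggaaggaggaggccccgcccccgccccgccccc

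The P2ry12 window holds 1 match to the SMAD motif CAGAC, whose first base lies 210 bases upstream of the start, and the P2ry13 window 1 match to the PU.1 core GAGGAA, 48 bases upstream. The Olfml3 window holds none of the 4 motifs searched, which besides these were GGAA and GAAA set 2 bases apart (PU.1 with IRF) and CTA and TAG set 4 bases apart (MEF2). Of 32851 promoter windows of the same length, 42.2% held CAGAC, 23.3% GAGGAA, 3.20% the MEF2 pattern and 2.30% the PU.1 with IRF pattern. The pairs of motifs do not overlap each other in these windows. Of the 9 markers 5 had a promoter entry. Of the remaining entries, that of Cx3cr1 held the MEF2 pattern 67 bases upstream and CAGAC 226 bases upstream, and that of Siglech held CAGAC 148 and 74 bases upstream. None of these matches is evidence of a bound site.

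At each of the 6 times Cx3cr1, P2ry13 and Olfml3 were lower in donors than in acceptors. At 0 min, 4 of the 8 were called, all lower in donors: Cx3cr1, P2ry13, Olfml3 and Tmem119 (22.8% of all genes called, 10.7% lower). At 15 min there were 5, or 4 without Gpr34, namely Cx3cr1, P2ry12, P2ry13, Gpr34 and Olfml3 (21.9% of all genes called, 10.2% lower). At 30 min (22.6% of all genes, 10.8% lower) and at 60 min (22.2%, 9.69% lower), 3 were called, Cx3cr1, P2ry13 and Olfml3 each time. At 150 min 5 were called, or 4 without Gpr34, with Gpr34 and Tmem119 besides those 3 (22.1% of all genes, 10.2% lower), and at 300 min 4, with Tmem119 besides them (23.0% of all genes, 11.6% lower). Without Acceptors_TW_300min replicate 2 the count at 300 min was 3, since Tmem119 then had a log2 difference of -1.58 in place of -2.15 (edgeR adjusted p = 0.0732 in place of 0.00818), and P2ry13 had -0.90 in place of -1.72 (0.0484 in place of 0.000811). A fit to the 300 min libraries alone called 2 markers, Cx3cr1 and Olfml3. The count at 15 min was 3 without acceptor replicate 1 or donor replicate 2, and at 150 min 3 without donor replicate 2.

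Cx3cr1 and Olfml3 kept their calls at every time whichever library was left out, and P2ry12 kept its 1 call, at 15 min. P2ry13, Tmem119 and Gpr34 lost some of theirs. P2ry13 lost its call at 15 min without acceptor replicate 1 or 2 or donor replicate 2 or 3 (edgeR adjusted p of 0.0507 to 0.138), at 30 min without donor replicate 2 (0.0837), and at 60 min without acceptor replicate 3 or any donor library (0.0503 to 0.136). Tmem119 lost its call at 0 min without acceptor replicate 1 or 2 or any donor library (0.0514 to 0.183), and at 150 min without acceptor replicate 2 or donor replicate 1 or 2 (0.0773 to 0.132). Gpr34 lost its call at 15 min without acceptor replicate 1 or 3 or donor replicate 2 or 3 (0.0593 to 0.110), and at 150 min without acceptor replicate 3 or donor replicate 2 or 3 (0.0595 to 0.0868). With every library kept, P2ry13 lost its call at 60 min in limma voom (adjusted p = 0.0608). Tmem119 lost its call at 0 min with the low-count filter off (edgeR adjusted p = 0.0527) and in a fit to the libraries compared (0.0553). Library totals gained calls for Tmem119 at 30 min and P2ry12 at 60 and 150 min. Gpr34 gained one at 300 min with the replicate block, limma voom and DESeq2.

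Averaged over the 6 times, donors and acceptors differed in 7 of the 8 markers, 6 lower and 1 higher in donors, where 62.6% of all genes were called, 33.0% lower and 29.5% higher. Gpr34 is among the 6 and passed the low-count filter only through the groups where it is high, and without it the count was 6 of 7. The log2 difference was -5.04 for Cx3cr1 (SE 0.26), -2.04 for Olfml3 (SE 0.15), -1.48 for Tmem119 (SE 0.24), -1.44 for P2ry13 (SE 0.15) and -1.42 for P2ry12 (SE 0.26). The fitted value of Gpr34, -3.92 (SE 0.67), depends on the prior count and is no bound, since 26 reads of it were found in all 18 donor libraries together, against 432 in the 18 acceptor libraries. Each of these 6 genes was called in every alternative run, 43 per gene, with edgeR adjusted p in the main analysis between 1.73e-17 for Cx3cr1 and 1.67e-05 for P2ry12. Their median with P2ry6 and Selplg included was -1.46, beside -0.08 over all genes. Selplg was higher in donors by 0.37 (SE 0.09, edgeR adjusted p = 0.000857), which library totals moved to 0.04 (0.756), and P2ry6 was at -0.19 (SE 0.14, 0.226), which library totals moved to -0.53 (0.000675). In this comparison library totals moved the median of all genes to -0.42 and the calls from 4307 lower of 8153 to 6499 lower of 8754.

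The levels behind the averages show how far the populations overlapped. Tmem119 was at 0.398 to 4.95 CPM in donors with a median of 2.19, and at 2.87 to 18.6 CPM in acceptors with a median of 5.45. P2ry12 was at 0.276 to 3.39 CPM in donors with a median of 1.37, and at 0.655 to 6.75 CPM in acceptors with a median of 3.68. Both populations overlapped for these markers. Gpr34 was at 0 to 0.521 CPM in donors, with 11 of 18 libraries at 0, and at 0 to 5.37 CPM in acceptors with a median of 1.54 and 1 library at 0. Olfml3 was at 4.40 to 12.4 CPM in donors with a median of 7.02, and at 18.2 to 45.2 CPM in acceptors with a median of 31.5, without overlap. For Cx3cr1, P2ry13 and Olfml3 all 18 donor libraries lay below all 18 acceptor libraries, which 3.51% of all genes also did. Selplg was at 71.7 to 117 CPM in donors with a median of 95.1 and at 51.1 to 112 CPM in acceptors with a median of 73.9, and P2ry6 at 50.6 to 126 CPM in donors with a median of 80.8 and at 58.9 to 214 CPM in acceptors with a median of 85.05.

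Set side by side at the same time and in the same run of library numbers, 18 pairs could be formed. Donors were the lower library in 18 of 18 pairs for Cx3cr1, P2ry13 and Olfml3, in 16 for Tmem119 and Gpr34, in 15 for P2ry12, in 12 for P2ry6 and in 1 for Selplg. Of all genes 8.91% were lower in donors in 18 of 18 pairs and 24.1% in 15 or more. The order of the 13 groups by mean level placed all 7 acceptor and control groups above all 6 donor groups for Cx3cr1, P2ry12, P2ry13, Gpr34, Tmem119 and Olfml3, and below them for Selplg. The donor groups came last in that way for 21.2% of all genes and first for 20.2%. Of the 12 steps between neighbours in that order, the ranges of the 3 libraries were apart in 2 for Cx3cr1, 2 for P2ry13, 1 for Olfml3 and 0 for each of the other 5 markers, where 17.2% of all genes had at least 1 such step and 1.24% at least 2.

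No marker was called between acceptors at 0 min and the control. The count was 0 of 8, as of all genes (0% called, with 263 genes and 0 markers at an unadjusted p under 0.05; DESeq2 and limma voom also called 0 markers). The log2 differences, acceptors minus control, were 0.28 for Cx3cr1 (SE 0.53), -0.40 for P2ry13 (SE 0.35), -0.15 for P2ry12 (SE 0.60), 0.27 for P2ry6 (SE 0.34), -0.60 for Gpr34 (SE 1.35), -0.05 for Tmem119 (SE 0.57), -0.02 for Olfml3 (SE 0.34) and 0.19 for Selplg (SE 0.23). The SEs leave room for differences of about their size or more, so these values do not show that the groups were alike. P2ry13 was at 14.3, 11.9 and 15.5 CPM in acceptors beside 20.6, 17.6 and 16.8 in the control. Paired by run of library numbers, acceptors were above the control in 3 of 3 runs for Cx3cr1, P2ry6 and Selplg and below it in 3 of 3 for P2ry13. How many of all genes kept to the same side in every run was not counted, so no difference is read from this. With the runs as a replicate block 0 of the 8 markers were called, and the log2 difference of P2ry13 was -0.39.

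No marker was called at any later time against 0 min, in either population, and none in the tests of any change over time or of a difference between the time courses (edgeR, 0 of 8 in each, and 0 of 8 in every alternative that was run). Of all genes, 0 were called in acceptors at 15 and 30 min (0%), 1 at 60 min (0.00767%), 2 at 150 min (0.0153%) and 1 at 300 min (0.00767%), and 0 in donors at every time (0%). In the tests of a difference between donor and acceptor changes 1 gene was called at each of 60, 150 and 300 min (0.00767%) and 0 earlier, and the tests over all times called 2 genes in acceptors, 0 in donors and 2 between them (0.0153%, 0% and 0.0153%). At an unadjusted p under 0.05, 1 marker, P2ry6, stood in acceptors at 300 min (log2 difference 0.71, SE 0.34, and 0.23 without replicate 2), and 0 in donors at any time. Cx3cr1 in donors had means of 6.75 ± 1.57 CPM at 0 min, 8.66 ± 3.75 at 15 min, 7.16 ± 2.51 at 30 min, 9.94 ± 1.25 at 60 min, 11.0 ± 1.96 at 150 min and 13.8 ± 0.689 at 300 min (SD, n = 3). For Cx3cr1 in donors, the log2 difference at 300 min (13.5, 14.6 and 13.3 CPM) against 0 min (6.18, 5.55 and 8.53 CPM) was 1.02 (SE 0.57). It was not called. This SE rests on 1 estimate of the spread of Cx3cr1 over all 13 groups, not on the donor libraries alone. The same marker in acceptors had means of 347 ± 262 CPM at 0 min, 300 ± 213 at 15 min, 247 ± 117 at 30 min, 280 ± 159 at 60 min, 273 ± 179 at 150 min and 401 ± 149 at 300 min (SD, n = 3). These acceptor means lay between 247 and 401 CPM, and the SDs between libraries of a time between 117 and 262 CPM. Those SDs include the differences between runs of library numbers that are described further on.

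The other markers had these levels over time. P2ry13 in donors had means from 4.12 ± 0.813 CPM at 0 min to 6.72 ± 1.25 at 300 min, with 6.38 ± 1.55 at 15 min and 4.14 ± 0.615 at 150 min between them (SD, n = 3). In acceptors it had 13.9 ± 1.83 CPM at 0 min, 11.6 ± 0.410 at 30 min and 22.3 ± 16.9 at 300 min, the last of which was 12.5 CPM without replicate 2. Olfml3 kept a narrow band, with donor means between 6.62 ± 1.28 CPM at 300 min and 8.53 ± 3.91 at 0 min, and acceptor means between 29.0 ± 3.76 at 30 min and 39.9 ± 7.17 at 150 min. P2ry12 in acceptors had 4.57 ± 1.29 CPM at 0 min and 2.51 ± 1.64 at 300 min, or 3.44 without replicate 2, and in donors 1.95 ± 0.153 and 1.2 ± 0.820. P2ry6 in acceptors had 83.4 ± 36.7 CPM at 0 min and 137 ± 71.1 at 300 min, or 97.7 without replicate 2, and in donors 75.3 ± 24.4 and 98.7 ± 27.8. Tmem119 in acceptors had 5.46 ± 1.52 CPM at 0 min and 11.2 ± 6.55 at 300 min, or 7.53 without replicate 2, and in donors 1.75 ± 0.889 and 2.50 ± 1.07. Without that 1 library the acceptor means of P2ry13, P2ry12, P2ry6 and Tmem119 at 300 min were closer to those at 0 min, as was that of Cx3cr1 (374 CPM). Those of Olfml3 (35.3 CPM in place of 29.6, beside 29.3 at 0 min), Selplg (62.1 in place of 67.7, beside 73.3) and Gpr34 (1.91 in place of 1.67, beside 0.673) were farther from them. Selplg stayed between 67.7 ± 14.6 and 79.3 ± 30.3 CPM in acceptors and between 88.3 ± 5.84 and 105 ± 9.35 CPM in donors.

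Donors after 300 min still differed from the 0 min control. Of the 8 markers 4 were called, all lower (18.1% of all genes called, 8.20% lower): Cx3cr1 at a log2 difference of -4.37 (SE 0.62), Olfml3 at -2.16 (SE 0.36), P2ry12 at -2.06 (SE 0.65) and P2ry13 at -1.44 (SE 0.37). P2ry12, with an edgeR adjusted p of 0.0241, was not called without donor replicate 1, donor replicate 3 or control replicate 3. Nor was it called in a fit to the libraries compared (edgeR adjusted p = 0.0641). Tmem119 was at -1.17 (SE 0.59, edgeR adjusted p = 0.176) and Selplg at 0.57 (SE 0.23, 0.0812). This comparison shares its control libraries with that at 0 min.

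**Figure D3:**
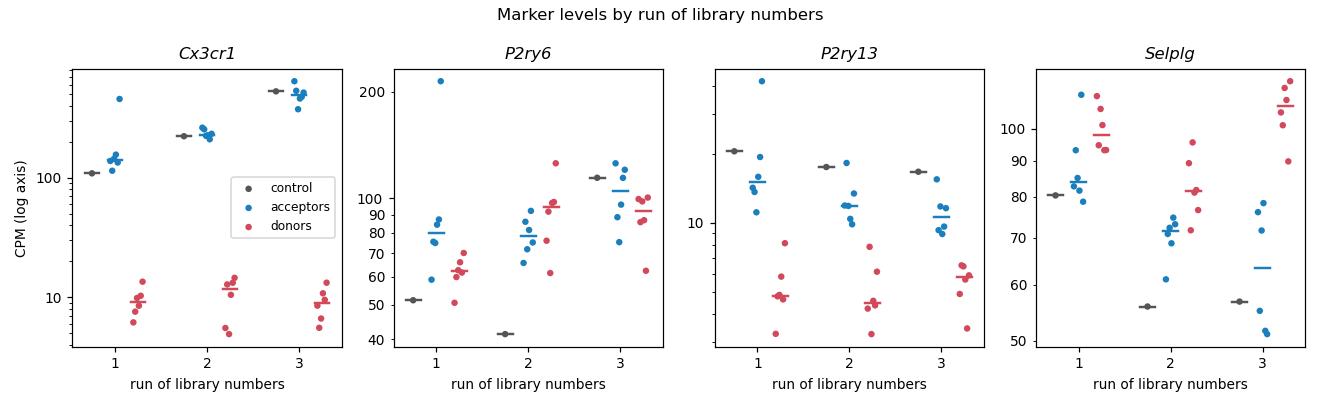
Level of 4 markers in CPM on a log axis against the run of library numbers (1 to 3); points are libraries and bars are medians of 6 acceptor (blue) or 6 donor (red) libraries, with the single control library of each run in grey. Acceptor and control levels of Cx3cr1 differ between runs and are highest in run 3, while its donor levels overlap between the 3 runs.

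Cx3cr1 levels in acceptors and control differed between the runs of library numbers. In run 1 the control library was at 109 CPM and the 6 acceptors at 114 to 455 CPM with a median of 141. In run 2 the control was at 222 CPM and the acceptors at 210 to 262 with a median of 230, and in run 3 the control was at 527 CPM and the acceptors at 374 to 640 with a median of 495. The ranges of runs 2 and 3 did not overlap. The range of run 1 reached into both through 455 CPM in Acceptors_TW_300min replicate 2. Donor medians were 9.20, 11.7 and 9.03 CPM in the 3 runs. The mean level of acceptors was 20.4 times that of donors in run 1 (14.7 times without that library), 22.9 times in run 2 and 55.1 times in run 3.

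The runs were tested after these levels had been seen, in a fit with a mean for each group and a run effect for each of 2 sets, donors on one side and acceptors with control on the other. Run 3 minus run 1 gave a log2 difference of 1.63 for Cx3cr1 in acceptors and control (SE 0.20, edgeR adjusted p = 2.26e-07) and -0.05 in donors (SE 0.23, 0.947), and these differed by 1.68 (SE 0.30, 0.000274). Selplg gave -0.48 in acceptors and control (SE 0.10, 0.00107) and 0.09 in donors (SE 0.11, 0.760), which differed by -0.57 (SE 0.15, 0.0163). P2ry13 gave -0.64 in acceptors and control (SE 0.21, 0.0292), and -0.42 without Acceptors_TW_300min replicate 2 (0.121). So 3 of the 8 markers were called in acceptors and control (18.9% of all genes), 0 in donors (5.47%) and 2 in the difference (7.89%). Without that library P2ry6 was called in both sets, at 0.55 (0.00761) and 0.53 (0.0232), and Tmem119 differed between them by 1.56 (0.0334), beside 1.25 (0.146) with it. Run 2 minus run 1 was called for Selplg alone in acceptors and control (-0.36, 0.0302; 6.03% of all genes) and for 0 of 8 in donors (10.1%). Without that library Cx3cr1 was called in acceptors and control too, at 0.81 (0.000254), and P2ry6 in donors, at 0.55 (0.0098). A test of any difference among the 3 runs called Cx3cr1 and Selplg in acceptors and control (22.2% of all genes), Olfml3 (0.0117) and Selplg (0.0485) in donors (17.1%), and Cx3cr1 and Selplg between the 2 sets (16.1%). Donor levels thus differed between runs for 2 of the 8 markers. Without that library this test also called P2ry6 in each set and Tmem119 between them (0.0251). The sources used here do not say what a run stands for.

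The other homeostatic genes of microglia gave a mixed picture of the same sign. Of 39 listed, 37 were tested, and in donors against control at 0 min 12 were lower and 3 higher (median log2 difference -0.65, all genes -0.03). Among all genes 9.34% were lower and 10.3% higher there. The farthest below were Slco2b1, an organic anion transporter, Lair1, an inhibitory collagen receptor, at -3.28, and Csf1r, the receptor for the growth factor on which microglia depend, at -2.61. Slco2b1 had no read in the donors at 0 min and 6.30 ± 8.20 CPM in the control (SD, n = 3). The control mean was 73.9-fold a floor of 3 counts over the donor group. That floor covers counting error only, and the SD of the control exceeded its mean, so this is no bound on the difference. The 3 higher ones were Cd33, a sialic acid-binding receptor, at 2.78, Rhob, a small GTPase, at 1.24, and Irf8, a transcription factor of the macrophage lineage, at 0.94. As the mean of donors against acceptors over the 6 times, 20 were lower and 7 higher of 37 (median -0.61, all genes -0.08). In that mean 33.0% of all genes were lower and 29.5% higher. With library totals as the scale these counts were 2 higher and 16 lower at 0 min, and 4 higher and 23 lower in the mean.

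**Figure D4:**
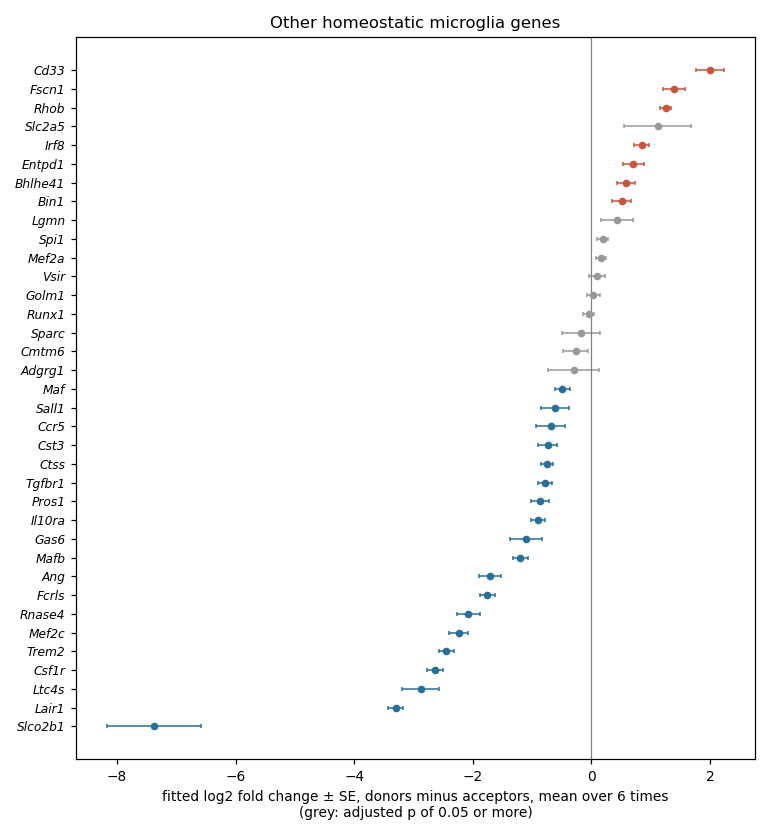
Fitted log2 fold change with SE, donors minus acceptors as the mean over 6 times, of 36 of the 37 other homeostatic microglia genes tested; blue is lower and red higher in donors at an adjusted p under 0.05, and grey is not called. Of the 36 genes shown, 19 are blue and 7 red, and Slco2b1 lies farthest below 0.

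Genes that supply or modify the markers' ligands moved in both directions. Of 17 tested, 4 were higher and 4 lower in donors against control at 0 min (median -0.47), where 10.3% of all genes were higher and 9.34% lower. St3gal6 and Gcnt1, glycosyltransferases that build the selectin-binding sugars on Selplg, were lower at -1.74 and -1.73, and Tyrobp, a signalling adaptor, at -1.12. Pla1a, a phospholipase that makes the lysophosphatidylserine bound by Gpr34, was higher at 4.39, and B4galt1, a galactosyltransferase, at 1.09. Thus genes around Selplg and Gpr34 stood on both sides. The counts for donors against acceptors in the mean over times were 5 higher and 8 lower of 17 (29.5% and 33.0% of all genes). With library totals they were 3 higher and 7 lower at 0 min, and 4 and 10 in the mean.

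Of 24 G protein and signalling genes downstream of the receptors, 2 were higher and 6 lower in donors against control at 0 min (median -0.32). The shares of all genes were 10.3% higher and 9.34% lower. Itpr1, a calcium channel of the endoplasmic reticulum, was lower at -2.58, Rgs10, a regulator of G protein signalling, at -1.92 and Gng10, a G protein gamma subunit, at -1.83, while Rgs1, another such regulator, was higher at 1.19 and Gng2, another gamma subunit, at 0.87. The mean over times gave 6 higher and 13 lower, where 29.5% of all genes were higher and 33.0% lower. Of 10 other purine receptors tested, 3 were higher and 1 lower at 0 min (median 0.06). P2rx7, an ATP-gated channel, was higher at 1.53 and Adora2b, an adenosine receptor, at 2.09. Adora2a, another adenosine receptor, had no read in the control and 3.88 ± 2.41 CPM in donors (SD, n = 3). That donor mean was 47.9-fold the floor of 3 counts, which leaves out the spread between donor libraries. Gpr183, an oxysterol receptor listed with them for its sequence family, was lower at -3.49. In the mean over times 4 were higher and 2 lower. Library totals gave 0 higher and 11 lower signalling genes at 0 min (3 and 18 in the mean), and 3 higher and 2 lower purine receptors (4 and 4 in the mean).

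TGF-beta signalling, which in mice keeps the homeostatic programme of microglia, had 2 of 19 tested genes higher and 1 lower in donors against control at 0 min (median 0.18). Nrros, which presents TGF-beta on microglia, was lower at -1.15, and Acvrl1, a type I receptor of the family, and Skil, an inhibitor of SMAD proteins, were higher at 1.09 and 0.74. Among all genes 10.3% were higher and 9.34% lower at 0 min, and 29.5% and 33.0% in the mean over times. For this list 8 were higher and 5 lower in that mean. This balance turned with library totals, which gave 1 higher and 4 lower at 0 min and 3 higher and 8 lower in the mean, so no direction is given for the list.

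Genes next to the markers on the chromosomes stood on both sides. Of 31 tested, 3 were higher and 2 lower in donors against control at 0 min (median 0.04). In the mean over times 14 were higher and 5 lower. Library totals gave 2 higher and 5 lower at 0 min, and 6 higher and 11 lower in the mean. This balance turned too, so no direction is given for the list. Some of these neighbouring genes overlap a marker, and the sources used here do not say whether counting used strand. Med12l, on the opposite strand across P2ry12 and P2ry13, was at -1.91 in the mean over times (edgeR adjusted p = 0.00251). Csrnp1, inside the longest annotated form of Cx3cr1 (chr9:119901616-120069879), was higher at 2.50 against control and 3.20 in the mean over times, opposite to Cx3cr1. Their part in the marker values was not tested.

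Markers of other cells were measured beside these results, and their part in the marker values was not tested. For donors against control at 0 min, 10.3% of all genes were higher and 9.34% lower. Summed over the list, the 7 monocyte and neutrophil markers in the table reached 80.3 to 198 CPM in donor, 18.7 to 56.8 in acceptor and 29.1 to 48.2 in control libraries, and of 6 tested, 2 were higher and 1 lower in donors against control at 0 min. S100a8, a neutrophil calcium-binding protein, was higher at 6.80 and Csf3r, a growth factor receptor of granulocytes, at 1.67, and Fn1, fibronectin, was lower at -5.36. Among them, the defining genes Ly6c2 and Mpo had no read in the control, and Mpo had none in the acceptors. Both had reads in at least 1 donor library. The 10 border macrophage markers summed to 496 to 958 CPM in donor, 939 to 1389 in acceptor and 1016 to 1040 in control libraries, with 1 higher (Ccr1, at 3.84) and 3 lower of 8 tested, of which Mrc1 was at -2.31. Cd163 and Lyve1 had no read in the control, and both had reads in at least 1 donor and 1 acceptor library. Astrocyte markers summed to 7.47 to 30.9 CPM in donor, 14.4 to 50.6 in acceptor and 17.2 to 43.5 in control libraries, with 0 higher and 1 lower of 10 tested. In the same order, oligodendrocyte lineage markers summed to 152 to 331, 182 to 361 and 229 to 241 CPM with 0 higher and 2 lower of 12, neuron markers to 2.47 to 24.0, 4.48 to 44.1 and 6.05 to 37.1 CPM with 0 higher and 1 lower of 8, and fibroblast and vascular markers to 66.1 to 138, 43.0 to 191 and 34.7 to 205 CPM with 2 higher and 0 lower of 7. The 2 were Pecam1, at 4.13, and Dcn, which had no read in the control. The donor mean of Dcn at 0 min was 93.8-fold the floor of 3 counts. That floor leaves out the spread between donor libraries, so this is no bound on the difference. The macrophage identity list had 1 higher and 7 lower of 16 (1 and 12 with library totals), and the rest were not called. Among the lower were Csf1r at -2.61, also named above among the other homeostatic genes, and C1qa at -1.37.

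The genes whose profile over the 13 group means was most like that of the markers were sought among 10924 genes with a mean of at least 1 CPM. The correlations rest mainly on the step between donors and the other groups, which those groups share, and are given as a description. The mean standardised profile of the 8 markers was most like Serpinb6a (r = 0.988), Prkra (0.986), Glrx3 (0.986), Ccdc107 (0.986) and Tifab (0.985). Within the 6 donor groups alone their r was 0.653, 0.843, 0.617, 0.906 and 0.899, and within the 6 acceptor groups 0.922, 0.941, 0.930, 0.841 and 0.737. One gene each was most like a single marker: Cnbd2 for Cx3cr1 (r = 0.997), Tyrobp for Olfml3 (0.995), Poglut1 for Tmem119 (0.989), Zmiz2 for P2ry13 (0.988), Arhgef3 for Gpr34 (0.971), Mrpl3 for P2ry12 (0.963), Wdr82 for Selplg (0.960) and Pycard for P2ry6 (0.937). Tyrobp, the closest to Olfml3, was at 556 to 1112 CPM in donor, 1223 to 2321 in acceptor and 1672 to 1762 in control libraries, and within the donor groups its r with Olfml3 was 0.286. Within a population the pairs of markers differed. Across the 6 donor groups Cx3cr1 had r = 0.498 with P2ry13 and -0.409 with Olfml3, where across all 13 groups it had 0.951 and 0.977, while P2ry12 and Olfml3 had 0.959 and P2ry13 and P2ry6 had 0.823. Across the 6 acceptor groups Cx3cr1 and P2ry13 had 0.951.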

How the data were processed

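The table used is the authors' deposited raw counts of reads, 1 row per gene symbol and 1 column for each of 39 libraries. Libraries came from the QuantSeq 3′ forward kit and single 100-base reads, per the labels' protocols. STAR, Partek and DESeq2 with the build mm10 appear, without roles, in the submitters' processing notes. A second deposited table holds a normalized signal, per the file headers, and was not used for tests. Counts were fitted in R 4.3.3 with edgeR 4.0.16: default low-count filter by group (13034 of 16144 genes, 99.97% of reads), TMM factors, and 1 quasi-likelihood model of all libraries with a mean for each group. Benjamini-Hochberg adjustment ran over every gene tested, threshold 0.05. The SE is the log2 value divided by the root of the F statistic. The script was tested on simulated counts.

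Alternatives were library-total and RLE scaling, no filter, DESeq2 1.42.0, limma 3.58.1 voom, a fit to the libraries compared, the runs of library numbers as a replicate block, and each library left out. Replicate numbers follow accession order, so pairing was checked through the runs: deviations correlated above 0.1 in all 3 pairs for acceptors against control, for the acceptor times, for donors at 15, 30, 60 and 300 min against 0 min, and for donors against acceptors at 15 min, and not for the other comparisons. The members and all gene lists were chosen with earlier results of these data known. For naming, up to 3 called genes per direction with the largest log2 difference at 0 min were picked from each other list. Not all of these are named. Med12l and Csrnp1 are given as genes that overlap a marker. Motifs were searched in RefSeq promoter windows (GRCm38.p6), and positions come from GENCODE M21. Results of 2 genes of the lists are not reported here by name, and they stay in the counts of their lists.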

Additional observations from a re-analysis of the deposited data

Results flagged for a closer look

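Of the markers, 2 differed between populations in how they varied over the runs of library numbers. For Cx3cr1, run 3 minus run 1 in acceptors and control exceeded that in donors by 1.68 on the log2 scale (SE 0.30, edgeR adjusted p = 0.000274). Without Acceptors_TW_300min replicate 2 the value was 1.97. For Selplg the same difference was -0.57 (SE 0.15, edgeR adjusted p = 0.0163), and -0.58 without that library. Of all genes, 7.89% were called in this test. Without that library Tmem119 was called too, at 1.56 (edgeR adjusted p = 0.0334). The test was chosen after the levels had been seen. The cause of these differences was not tested.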

How the results depend on the processing

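Of the counts of markers called, 191 of 193 values under the settings that kept every library stayed within 1.5 times the reported count. These values include the many comparisons in which no marker was called under any setting. The share therefore does not measure how firm the other counts are. The exceptions came from the fit to the libraries compared: 3 markers for donors against control at 0 min (reported 5) and 2 for donors against acceptors at 300 min (reported 4). With 1 library left out, the counts ranged from 3 to 4 for donors against control at 0 min, from 3 to 5 for donors against acceptors at 15 min and from 3 to 5 at 150 min. No called log2 difference changed sign. Of 553 values of single markers under settings that kept every library, 533 kept their side of the threshold, 11 lost a call and 9 gained one, and of 720 with a library left out 676 kept it, 38 lost a call and 6 gained one. With the replicate block, Selplg in donors at 300 min against control gained a call at 0.58 (edgeR adjusted p = 0.0299), as did Gpr34 in donors against acceptors at 300 min at -4.38 (0.0288), and no other call on a marker changed. The block raised the count of all genes called for donors against control at 0 min from 2565 to 3133, library totals raised it to 3362, and the fit to the libraries compared lowered it to 1821. Gpr34 and P2ry12 had at most 6 and 49 reads in a donor library.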
